A study of Mus musculus with 12 samples.

Results

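Genes of the tricarboxylic acid (TCA) cycle and of pyruvate entry into it were followed in immortalized murine brown adipocytes. The 32 genes were taken by symbol from a list of enzymes, carriers and regulators, out of the 48321 genes in the deposited matrix. They fall into 10 roles, which are the mitochondrial pyruvate carrier, the pyruvate dehydrogenase (PDH) complex, its kinases and phosphatase, pyruvate carboxylase, the steps from citrate to 2-oxoglutarate, 2-oxoglutarate dehydrogenase, succinyl-CoA ligase, succinate dehydrogenase, the fumarate and malate steps, and the aspartate and glutamate enzymes. All 32 passed the filter on low values and were tested together with the other genes, 11998 in all.

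The study asked what a soluble form of the semaphorin Sema4B does to adipocytes. RNAseq was carried out on 12 libraries, 3 in each of 4 groups. Every group came from WT C57BL/6J brown preadipocytes immortalized with SV40 large T antigen, which were stably transduced, selected with puromycin and differentiated for 8 days with IBMX, rosiglitazone, dexamethasone, insulin and T3. Vector cells carried empty pLEX, and tSema4B cells carried a truncated, Flag-tagged Sema4B that mimics its shed ectodomain. Each line was kept for 6 h in serum-free medium with 2% BSA, either alone (unstimulated) or with 2 μM norepinephrine (NE), the transmitter that activates brown fat. Each construct was studied in a single transduced line. The libraries of a group are described in the labels as technical replicates, and separate cultures are not stated, so that p-values measure only the spread between these libraries and cannot speak for other lines.

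The TCA cycle oxidizes the acetyl groups made from pyruvate and fatty acids and hands the electrons to the respiratory chain, which in brown fat drives heat production. Pyruvate crosses the inner mitochondrial membrane through the carrier and is then either decarboxylated to acetyl-CoA by the PDH complex or carboxylated to oxaloacetate by pyruvate carboxylase. PDH kinases phosphorylate the complex and switch it off, and PDH phosphatases switch it on.

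Reads counted on genes ranged from 2000780 to 5409583 per library, with more reads in every vector library than in any tSema4B library of the same condition. The transduced gene, Sema4b, had means of 116797 ± 6692 normalized counts in vector and 281514 ± 31108 in tSema4B cells without stimulation, and of 74266 ± 8219 and 234276 ± 32374 after NE (SD, n = 3 each), with reads of construct and endogenous gene not separated. In unstimulated vector libraries, labelled as empty vector, Sema4b was thus above the sum of the 10 adipocyte markers given below (42229 to 48589). The origin of these reads was not tested. Mitochondrially encoded genes took 13.4 to 15.8% of the reads in unstimulated vector libraries and 7.02 to 7.89% in unstimulated tSema4B libraries. Of the brown adipocyte markers, Dio2 had no read in any library, Ucp1 had none in the 3 unstimulated tSema4B libraries and Cox8b had none in any tSema4B library.

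In unstimulated cells, genes of the TCA cycle and of pyruvate entry were mostly lower in tSema4B than in vector cells. By limma, 27 of the 32 had an adjusted p of 0.05 or less and were lower, against 7.39% of all genes tested, and 1, Pdp1, was higher, against 5.64%. The remaining 4, Pdk2, Ogdh, Got1 and Got2, were not called. Of the 27, 8 fell at least 2-fold, against 2.71% of all genes, and these were Mpc1, Pdhx, Dlat, Pdk1, Pdk4, Pcx, Cs and Idh3a. The median log2 fold change of the 32 was -0.69, and that of all genes tested was -0.0025. For 28 of the 32, each tSema4B library lay below each vector library, which held for 15.1% of all genes.

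After NE, 23 of the 32 were lower in tSema4B than in vector cells, against 11.2% of all genes, and Pdp1 alone was higher, against 9.79%. At least 2-fold lower were 6 of them, against 3.73% of all genes, namely Mpc1, Mpc2, Dlat, Pdk4, Pcx and Suclg2. The median of the 32 was -0.53, beside -0.01 over all genes, and 26 of the 32 had every tSema4B library below every vector library, against 19.8%. The 23 were among the 27 lower without stimulation (85.2% of those 27, 100% of the 23). Pdha1, Sucla2, Sdha and Sdhc were called without stimulation and not after NE, a difference that the interaction test of limma did not call for any of them.

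**Figure D1:**
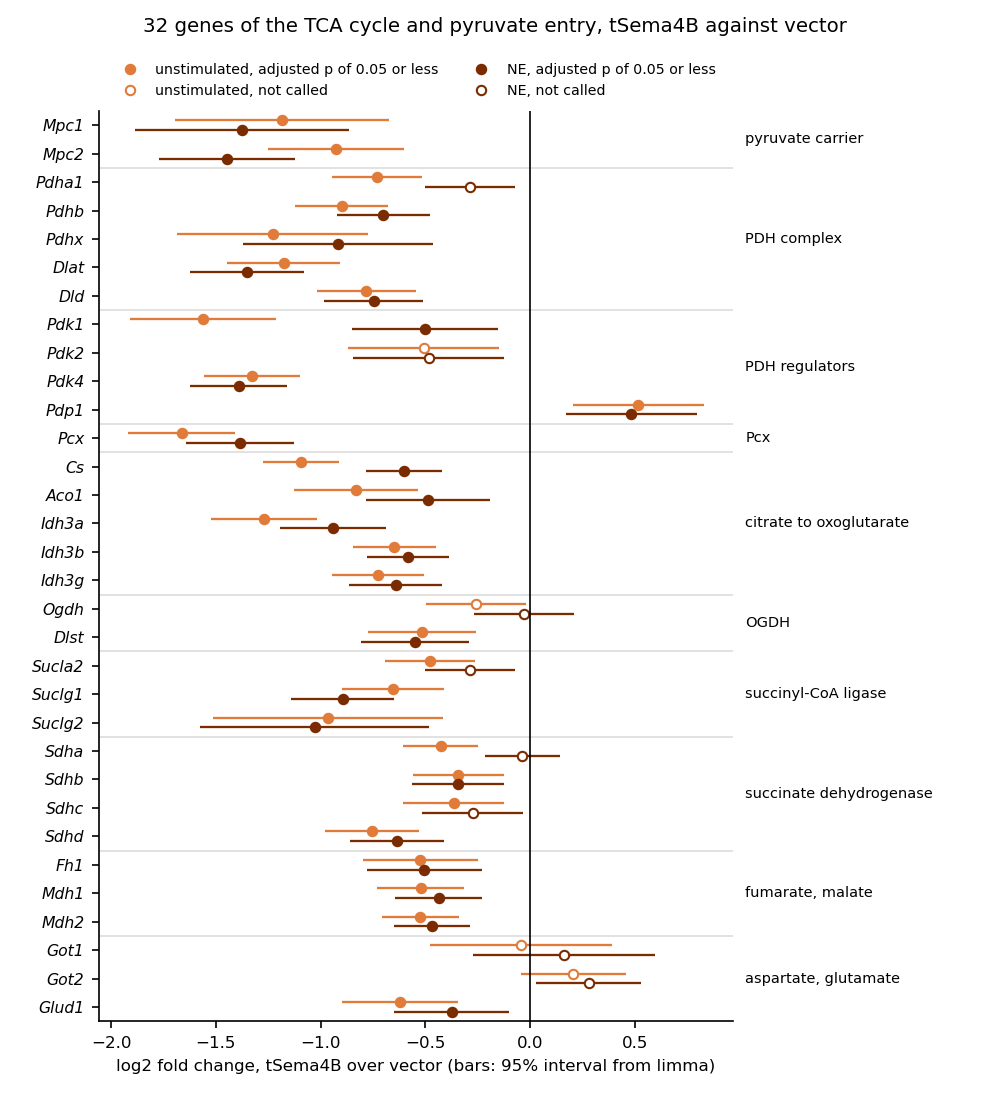
Log2 fold change of each of the 32 genes, tSema4B over vector, in unstimulated cells (light) and after NE (dark), ordered by role. Bars are 95% intervals from limma, filled points have an adjusted p of 0.05 or less, and all but Pdp1 among the filled points lie to the left of 0.

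The same difference stood in every library. Against the mean of the unstimulated vector libraries, the median over the 32 genes lay between -0.72 and -0.64 (log2) in the unstimulated tSema4B libraries and between -0.66 and -0.59 in those treated with NE, while the vector libraries lay between -0.09 and 0.07. The 32 genes took 0.718 to 0.825% of all reads in unstimulated vector libraries and 0.457 to 0.4996% in unstimulated tSema4B libraries. After NE, the shares were 0.735 to 0.765% and 0.520 to 0.536%, so that the lines did not overlap in either condition.

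**Figure D2:**
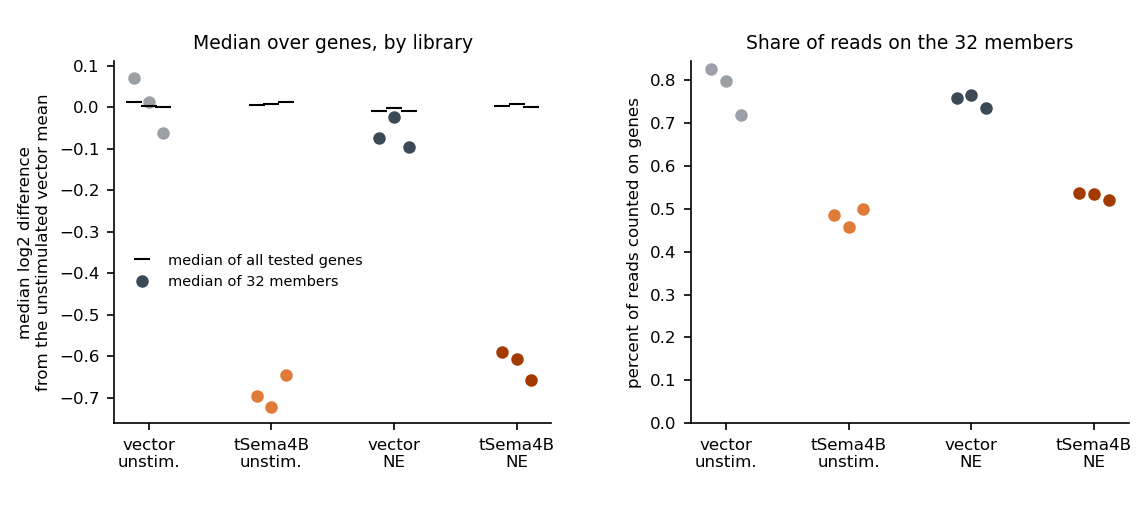
Left, the median log2 difference from the unstimulated vector mean in each of the 12 libraries, over the 32 genes (points) and over all tested genes (dashes). Right, the percent of each library's reads that fell on the 32 genes. In both plots the tSema4B libraries lie below every vector library.

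Markers of fat cell differentiation moved with these genes. All 10 of the 10 adipocyte markers listed were at least 2-fold lower in tSema4B cells in both conditions, against 2.71% of all genes unstimulated and 3.73% after NE. The median log2 fold change of these markers was -2.49 unstimulated and -1.75 after NE. Their summed level was 42229 to 48589 normalized counts in unstimulated vector libraries and 7368 to 10115 in unstimulated tSema4B libraries. Of the 10 preadipocyte and fibroblast markers, 9 were tested. Of these, 7 were higher without stimulation, against 5.64% of all genes, and 8 after NE, against 9.79%. Their sum was 21596 to 21788 in unstimulated vector and 38674 to 45426 in unstimulated tSema4B libraries. The part of these markers in the lower levels of the 32 genes was not tested, and in these bulk libraries fewer differentiated cells and less RNA of a gene per cell cannot be told apart. After NE the adipocyte sum was 55998 to 67499 in vector and 11361 to 12901 in tSema4B libraries, and the preadipocyte and fibroblast sum was 15776 to 17654 and 32569 to 35438. Of the 8 brown adipocyte markers 6 were tested, but Cox7a1 passed the filter on low values only through vector libraries, so no count of calls is given. The 8 markers summed to 164 to 230 in vector and 41.7 to 69.8 in tSema4B libraries without stimulation. After NE their sums were 477 to 507 and 119 to 152. The macrophage markers summed to between 13.1 and 59.6 and the endothelial markers to between 4.34 and 21.9 over all libraries, with Adgre1, Ptprc, Kdr and Tie1 at 0 in all of them. Of the 6 macrophage markers 2 were tested, Csf1r and Cd14, and neither was called between the lines. With NE, Cd14 was higher in vector cells (log2 fold change 1.29, SE 0.41, adjusted p = 0.0464). Csf1r, which passed the filter only through NE-treated libraries, was at 0 to 2.74 normalized counts without stimulation and at 9.65 to 19.8 after NE, and the macrophage sum was 13.1 to 21.7 in unstimulated and 41.7 to 59.6 in NE-treated vector libraries, and 17.8 to 29.4 and 25.7 to 52.1 in tSema4B libraries. The muscle genes Myod1, Myog, Ckm and Myf5 were at 0 in all libraries. Acta1, the only gene of that list with a read, was at 9.77 to 24.0 normalized counts in unstimulated vector and 0 to 4.77 in unstimulated tSema4B libraries, and at 20.7 to 29.6 and at 0 after NE, and it passed the filter only through vector libraries. The part of these markers in the results was not tested either.

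The mitochondrial pyruvate carrier is a complex of the products of Mpc1 and Mpc2, and both genes were lower in tSema4B cells. Mpc2 (ENSMUSG00000026568.6, chr1:165460637-165481214, plus strand) had normalized counts of 631, 529 and 567 in the vector libraries and 309, 238 and 374 in the tSema4B libraries without stimulation (log2 fold change -0.93 with SE 0.16 and adjusted p = 0.000232). After NE it had 702, 906 and 819.7 in the vector libraries and 365, 295 and 238 in the tSema4B libraries (log2 fold change -1.45 with SE 0.16 and adjusted p = 7.6e-07). The lines did not overlap in either condition, and the lowest NE-treated vector library was above all unstimulated ones. Mpc1 (ENSMUSG00000023861.17, chr17:8282904-8297661, plus strand) had 97.7, 90.8 and 87.1 in the vector libraries and 31.0, 49.5 and 41.1 in the tSema4B libraries without stimulation (log2 fold change -1.19 with SE 0.25 and adjusted p = 0.00195). It had 85.3, 109.7 and 122 in the vector libraries and 32.2, 44.5 and 43.6 in the tSema4B libraries after NE (log2 fold change -1.38 with SE 0.25 and adjusted p = 0.000334). Its values rest on as few as 26 reads and are uncertain for another reason, since Mpc1-ps, a processed pseudogene that matches it at 99.7% over 330 bases, was counted at a higher level. Mpc1-ps had means of 291 ± 10.9 in vector and 194 ± 39.7 in tSema4B cells without stimulation, and the sum of both features was 383 ± 15.7 and 235 ± 36.5. After NE the sum was 466 ± 37.0 and 245 ± 26.6.

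The PDH complex joins a decarboxylase made of the products of Pdha1 and Pdhb, the acetyltransferase Dlat, the dihydrolipoamide dehydrogenase Dld and Pdhx, which tethers Dld to the core. Without stimulation all 5 genes were lower in tSema4B cells, with log2 fold changes from -1.23 to -0.73, and 4 of the 5 were after NE. Dlat (ENSMUSG00000000168.9, chr9:50634633-50659780, minus strand) had 703, 739 and 583 in the vector libraries and 291, 295 and 304 in the tSema4B libraries without stimulation (log2 fold change -1.18 with SE 0.13 and adjusted p = 9.51e-07). After NE, Dlat stood at 703, 627 and 671 in the vector libraries and 248.8, 324 and 219 in the tSema4B libraries (log2 fold change -1.35 with SE 0.13 and adjusted p = 1.5e-07). The highest tSema4B library of Dlat was thus far under the lowest vector library in both conditions. Pdhx (ENSMUSG00000010914.10, chr2:103021075-103073513, minus strand) had 258, 224 and 210.2 in the vector libraries and 82.2, 85.1 and 133 in the tSema4B libraries in unstimulated cells (log2 fold change -1.23 with SE 0.22 and adjusted p = 0.000411). With NE it had 254, 295 and 262 in the vector libraries and 155, 198 and 93.8 in the tSema4B libraries, and its spread among tSema4B libraries was wider (log2 fold change -0.92 with SE 0.22 and adjusted p = 0.00448). Pdhb fell by 0.90 and 0.70 on the log2 scale and Dld by 0.78 and 0.75, without stimulation and after NE (largest adjusted p of the 4, 5.37e-05). Pdha1, the subunit that PDH kinases phosphorylate, fell without stimulation (log2 fold change -0.73 with SE 0.10 and adjusted p = 2.67e-05) and narrowly missed the threshold after NE (log2 fold change -0.29 with SE 0.10 and adjusted p = 0.0502). Part of Pdha1 lies opposite exons of Map3k15 and part of Pdhb is matched by a pseudogene, Gm6123, whose level was 12.6% of that of Pdhb. Exons of Mpc1, Idh3b and Got2 also overlap genes on the opposite strand, and whether counting used strand is not given in the sources used here.

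Among the regulators of PDH, Pdk1 and Pdk4 were lower in tSema4B cells and the phosphatase Pdp1 was higher. Pdk4, the isoform that rises in fasting and in fat oxidation, had 1180.4, 1408 and 1213 in the vector libraries and 510.1, 476 and 523 in the tSema4B libraries without stimulation (ENSMUSG00000019577.6, chr6:5483351-5496309, minus strand; log2 fold change -1.33 with SE 0.11 and adjusted p = 1.66e-08). In NE-treated cells it had 1783, 1356 and 1950.4 in the vector libraries and 609, 655 and 654 in the tSema4B libraries (log2 fold change -1.39 with SE 0.11 and adjusted p = 7.69e-09). In tSema4B cells Pdk4 stood at 39.7% of its vector level without stimulation and at 37.7% after NE. Short stretches of 101 to 126 bases of Pdk4 exons match 9 other genes at 95% or more, and reads from these stretches could be split. In sum these genes were counted at 540% of the level of Pdk4, nearly all of it on Lpl, the lipoprotein lipase gene, whose mean was 7222 in unstimulated vector and 1902 in unstimulated tSema4B cells, and 8355 and 3887 after NE. The part of such reads in the values of Pdk4 was not tested. Pdk1 (ENSMUSG00000006494.11, chr2:71873224-71903858, plus strand), a kinase known as a target of hypoxia-inducible factor, had 405, 346 and 357 in the vector libraries and 112, 145 and 118 in the tSema4B libraries without stimulation (log2 fold change -1.56 with SE 0.17 and adjusted p = 6.31e-07). With NE it had 399.8, 366 and 339 in the vector libraries and 188, 282 and 329 in the tSema4B libraries (log2 fold change -0.50 with SE 0.17 and adjusted p = 0.0368), and the lines still did not overlap, with the highest tSema4B library just under the lowest vector library. That second call of Pdk1 was lost without NE-treated vector replicate 1 or 2 or 3 or NE-treated tSema4B replicate 1, with an adjusted p between 0.0566 and 0.228, and without NE-treated tSema4B replicate 1 its log2 fold change was -0.27. The call was also lost with no filter, the same total over all genes, quantile normalization and the same total over nuclear genes without Sema4b (limma, adjusted p between 0.0509 and 0.0831). Pdk2, the kinase most widely expressed, had means of 254 ± 26.3 and 181 ± 40.6 in vector and tSema4B cells without stimulation (log2 fold change -0.51 with SE 0.17 and adjusted p = 0.0572), and of 186 ± 13.0 and 134 ± 23.2 after NE (log2 fold change -0.48 with SE 0.17 and adjusted p = 0.0503).

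Pdp1, singled out because it alone was higher in tSema4B cells, had 367, 293 and 315 in the vector libraries and 533, 393 and 474 in the tSema4B libraries without stimulation (ENSMUSG00000049225.14, chr4:11958184-11966452, minus strand; log2 fold change 0.52 with SE 0.15 and adjusted p = 0.0247). Its NE-treated values were 252, 182 and 185 in the vector libraries and 314, 249.96 and 295 in the tSema4B libraries, and there the groups touched, with the highest vector library above the lowest tSema4B library (log2 fold change 0.48 with SE 0.15 and adjusted p = 0.0255). The unstimulated call was lost without unstimulated vector replicate 2 or 3 or unstimulated tSema4B replicate 1 or 3, with an adjusted p between 0.0644 and 0.122, and the call after NE was lost without NE-treated vector replicate 2 or 3 or NE-treated tSema4B replicate 1 or 3, with an adjusted p between 0.0677 and 0.117. Pdk3, the other PDH kinase, is not among the 32 genes and comes from a wider list around the cycle. Its level per kb of exon was 114 ± 17.5 in vector and 142 ± 9.86 in tSema4B cells without stimulation (log2 fold change 0.32 with SE 0.13 and adjusted p = 0.1), and 118 ± 1.80 and 179 ± 22.3 after NE, where it was higher (log2 fold change 0.59 with SE 0.13 and adjusted p = 0.002). The summed level of the 4 kinases per kb was 603 ± 36.3 in unstimulated vector and 358 ± 13.0 in unstimulated tSema4B cells, and 708 ± 90.1 and 437 ± 8.58 after NE. The ratio of the 4 kinases to Pdp1, also per kb, was 8.45 ± 1.23 in vector and 3.51 ± 0.482 in tSema4B cells without stimulation, and 15.7 ± 2.96 and 6.94 ± 0.735 after NE (SD, n = 3 each). Pdp2 and Pdpr, PDH phosphatase genes of the wider list, were not part of this ratio. No test was made of the ratio. Its values in tSema4B libraries lay below those in vector libraries in each condition, and those after NE above those without it in each line. Pdk4 made up 59.9 ± 3.88% of the kinase level per kb in unstimulated vector and 40.0 ± 0.826% in unstimulated tSema4B cells, and 67.9 ± 3.91% and 41.7 ± 1.94% after NE. The share of Pdk3 was 18.9 ± 2.90% and 39.6 ± 2.92% without stimulation, and 16.9 ± 2.37% and 40.9 ± 5.08% after NE. The lines did not overlap in either share. Pdk4 was thus the most abundant kinase in every vector library, whereas in 1 unstimulated and 1 NE-treated tSema4B library Pdk3 was.

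**Figure D3:**
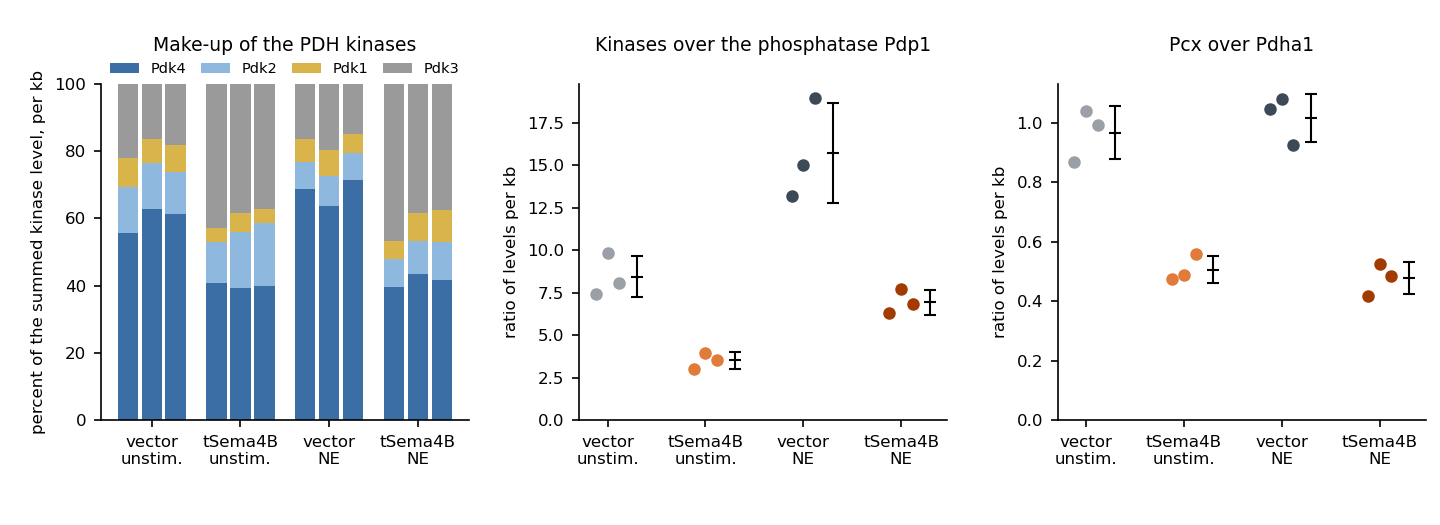
Left, the percent of the summed level of the PDH kinases (per kb of exon) that Pdk4, Pdk2, Pdk1 and Pdk3 each took in each library. Middle and right, the ratio of these kinases to the phosphatase Pdp1 and of Pcx to Pdha1 in each library (points), with the mean ± SD of 3 libraries. The share of Pdk4 and both ratios are lower in tSema4B libraries than in vector libraries of the same condition.

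Pcx encodes pyruvate carboxylase, which makes oxaloacetate from pyruvate and is high in fat cells, where oxaloacetate feeds citrate export for lipid synthesis. Of the 32 genes it had the most negative fitted log2 fold change in unstimulated cells. Pcx (ENSMUSG00000024892.17, chr19:4510472-4621752, plus strand) had 1032, 979.5 and 983 in the vector libraries and 299, 309 and 335 in the tSema4B libraries (log2 fold change -1.66 with SE 0.12 and adjusted p = 2.39e-09). After NE it had 986, 1054 and 889 in the vector libraries and 295, 452 and 388 in the tSema4B libraries (log2 fold change -1.38 with SE 0.12 and adjusted p = 5.09e-08). The level in tSema4B cells was 31.5% of that in vector cells without stimulation and 38.7% after NE. The ratio of Pcx to Pdha1 per kb was 0.967 ± 0.0883 in vector and 0.506 ± 0.0453 in tSema4B cells without stimulation and 1.017 ± 0.0798 and 0.476 ± 0.0540 after NE, with no overlap between the lines, so that the gene of the carboxylase was lower relative to that of the decarboxylase.

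Sequence upstream of the start sites is shown for Pcx, Pdk1 and Pdk4, which had the most negative log2 fold changes without stimulation. They are RefSeq windows on GRCm38.p6, read 5′ to 3′ over the 250 bases before each start, without bases that lie in annotated exons. Capitals mark any of the motifs named after them, searched on both strands. Pcx has a distal and a proximal start, and the proximal one lies within the gene. Pdk1 has another window, chr2:71874654-71874903, which is not shown because all its 250 bases lie in annotated exons.
Pcx distal start, chr19:4510222-4510471, plus strand: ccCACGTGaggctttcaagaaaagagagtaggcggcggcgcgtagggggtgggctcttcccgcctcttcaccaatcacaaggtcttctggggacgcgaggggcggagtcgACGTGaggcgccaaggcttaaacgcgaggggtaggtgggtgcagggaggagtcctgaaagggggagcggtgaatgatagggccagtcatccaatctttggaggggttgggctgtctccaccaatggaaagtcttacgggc
Pcx proximal start, chr19:4594069-4594318, plus strand: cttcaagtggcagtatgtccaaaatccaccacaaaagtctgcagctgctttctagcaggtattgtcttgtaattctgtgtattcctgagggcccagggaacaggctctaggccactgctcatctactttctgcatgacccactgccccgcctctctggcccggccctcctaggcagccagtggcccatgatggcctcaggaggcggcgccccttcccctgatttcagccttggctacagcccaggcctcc
Pdk1, chr2:71872974-71873223, plus strand: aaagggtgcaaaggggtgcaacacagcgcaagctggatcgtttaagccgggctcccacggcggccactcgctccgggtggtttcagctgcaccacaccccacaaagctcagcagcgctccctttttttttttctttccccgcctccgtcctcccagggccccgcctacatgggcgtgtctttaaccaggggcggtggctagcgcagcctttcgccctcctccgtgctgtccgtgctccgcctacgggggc
Pdk4, chr6:5496310-5496528, minus strand: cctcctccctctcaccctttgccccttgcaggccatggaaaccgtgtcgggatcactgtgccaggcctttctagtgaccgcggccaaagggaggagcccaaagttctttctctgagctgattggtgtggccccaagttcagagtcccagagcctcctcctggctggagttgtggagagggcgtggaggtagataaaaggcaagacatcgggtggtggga

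RefSeq windows were found for 29 of the 32 genes (not for Pdp1, Idh3a and Sdhc), and whole windows of 300 bases, 250 before and 50 after each start, were compared with those of all genes. ACGTG, the core that hypoxia-inducible factors bind and part of the E-box CACGTG, was in 31.6% of the 38 windows of these genes and 19.6% of all 32851. Of the 38 windows, 12 held it, for 7 genes (Idh3g, Mdh1, Ogdh, Pcx, Pdhb, Pdk2 and Sdha), and all 6 windows of Ogdh were among the 12. Of the sequences above only the distal start of Pcx holds it. AGGTCA, a core bound by nuclear receptors, was in 26.3% of the 38 windows of these genes and 16.3% of all 32851. TCAAGGTCA, the element of estrogen-related receptors that contains AGGTCA, was in 2.63% of the 38 windows of these genes and 0.423% of all 32851, for Sdhd only. TGACGTCA, the cAMP response element, was in 10.5% of the 38 windows of these genes and 1.79% of all 32851, for Mdh2 and Ogdh, and that of Mdh2 lies before the RefSeq start but within an exon of Mdh2 as annotated in GENCODE vM21. CGCATGCG, a core of NRF1 sites, was in 5.26% of the 38 windows of these genes and 1.87% of all 32851, for Ogdh only. Some windows of one gene overlap (Ogdh has 6), and the windows of these genes had a median GC content of 61.0%, against 52.4% for all. A match of letters is a description of the window.

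Citrate synthase (Cs) joins acetyl-CoA to oxaloacetate, and its activity is a common measure of mitochondrial content. The 5 genes of the steps from citrate to 2-oxoglutarate were lower in tSema4B cells in both conditions. Cs (ENSMUSG00000005683.8, chr10:128337734-128362479, plus strand) had 2431, 2332 and 2186 in the vector libraries and 1145, 1077 and 1034 in the tSema4B libraries without stimulation (log2 fold change -1.09 with SE 0.09 and adjusted p = 7.23e-09). With NE it had 1970.04, 1732 and 1769.7 in the vector libraries and 1066, 1229.9 and 1312 in the tSema4B libraries (log2 fold change -0.60 with SE 0.09 and adjusted p = 2.89e-05). No tSema4B library reached a vector library, and the vector libraries themselves were lower after NE. Idh3a (ENSMUSG00000032279.11, chr9:54586334-54604661, plus strand), the catalytic subunit of the NAD-dependent isocitrate dehydrogenase, had 1576, 1553 and 1099 in the vector libraries and 619.8, 481 and 639 in the tSema4B libraries without stimulation (log2 fold change -1.27 with SE 0.12 and adjusted p = 1.19e-07). In NE-treated cells it had 1668, 1702 and 1514 in the vector libraries and 820.3, 865 and 855 in the tSema4B libraries (log2 fold change -0.94 with SE 0.12 and adjusted p = 7.87e-06). The other subunits, Idh3b and Idh3g, differed less, with log2 fold changes of -0.65 and -0.73 without stimulation and -0.58 and -0.64 after NE (largest adjusted p, 0.000144), and the ratio of Idh3a to Idh3g per kb was 0.891 ± 0.184 in vector and 0.606 ± 0.0963 in tSema4B cells without stimulation. That ratio overlapped between these groups, with 1 vector library at 0.680 and 1 tSema4B library at 0.717. After NE the ratio was 1.12 ± 0.162 and 0.907 ± 0.0193, and all tSema4B libraries lay below all vector libraries, the nearest at 0.926 and 0.942. Aco1, the cytosolic aconitase that also regulates iron, fell without stimulation (log2 fold change -0.83 with SE 0.14 and adjusted p = 0.000283) and after NE (log2 fold change -0.49 with SE 0.14 and adjusted p = 0.0174), and the latter call was lost without NE-treated vector replicate 1 or 2 or NE-treated tSema4B replicate 3, with an adjusted p between 0.0644 and 0.0944.

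2-oxoglutarate dehydrogenase shares Dld with PDH and has Ogdh and Dlst as its other subunits. Ogdh, the decarboxylase, was among the few genes not called, with means of 605 ± 9.604 and 509.7 ± 86.9 in vector and tSema4B cells without stimulation (log2 fold change -0.26 with SE 0.11 and adjusted p = 0.148) and 532 ± 48.5 and 519.8 ± 22.1 after NE (log2 fold change -0.03 with SE 0.11 and adjusted p = 0.886; 95% interval of the log2 fold change -0.27 to 0.21). Dlst, the succinyltransferase, fell in both conditions (-0.52 and -0.55, adjusted p = 0.00671 and 0.00285). The ratio of Ogdh to Cs per kb was 0.277 ± 0.0106 in vector and 0.4998 ± 0.0981 in tSema4B cells without stimulation, and 0.311 ± 0.0474 and 0.460 ± 0.0302 after NE, and the lines did not overlap in either condition. The sequence upstream of Ogdh is given because it holds a cAMP response element, here starting 51 bases before the start site and overlapping ACGTG on the opposite strand (both in capitals).
Ogdh, chr11:6291347-6291596, plus strand: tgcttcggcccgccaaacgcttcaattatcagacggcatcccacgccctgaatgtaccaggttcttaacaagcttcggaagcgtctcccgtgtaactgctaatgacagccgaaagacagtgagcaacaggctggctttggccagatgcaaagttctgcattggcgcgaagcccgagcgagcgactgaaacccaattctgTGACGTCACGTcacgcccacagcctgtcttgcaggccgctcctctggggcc

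Succinyl-CoA ligase pairs Suclg1 with either Sucla2, for the ADP-dependent form, or Suclg2, for the GDP-dependent form. Suclg2 (ENSMUSG00000061838.7, chr6:95473009-95718800, minus strand) had 141, 140.4 and 132 in the vector libraries and 63.2, 71.2 and 76.7 in the tSema4B libraries without stimulation (log2 fold change -0.96 with SE 0.26 and adjusted p = 0.0164). Its NE-treated values were 91.4, 130.4 and 118 in the vector libraries and 75.1, 70.1 and 30.4 in the tSema4B libraries (log2 fold change -1.03 with SE 0.26 and adjusted p = 0.00735). The lines did not overlap, but the counts were the lowest per kb of the 32 genes, and the unstimulated call was lost without unstimulated vector replicate 1 or 2 or unstimulated tSema4B replicate 1, with an adjusted p between 0.0595 and 0.06. After NE its log2 fold change was -0.62 without tSema4B replicate 3 (adjusted p = 0.0495). A processed pseudogene, Gm15163, matches Suclg2 closely and was counted at 15.1% of its level. Sucla2 fell without stimulation (log2 fold change -0.48 with SE 0.10 and adjusted p = 0.00282) and missed the threshold after NE (log2 fold change -0.29 with SE 0.10 and adjusted p = 0.0511), and Suclg1 fell in both conditions (-0.65 and -0.89, adjusted p = 0.000471 and 9.9e-06). Sucla2 exceeded Suclg2 per kb in every group, with a ratio of 6.74 ± 0.510 in vector and 9.51 ± 0.573 in tSema4B cells without stimulation, which did not overlap. After NE the ratios were 8.04 ± 1.17 and 14.2 ± 5.96, and the tSema4B libraries had 10.9, 10.6 and 21.1, the last from the library with the lowest Suclg2 count.

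Succinate dehydrogenase is complex II of the respiratory chain as well as a TCA enzyme. All 4 subunit genes were lower in tSema4B cells without stimulation, and 2 of the 4 were after NE. Without stimulation, log2 fold changes were -0.43, SE 0.09, adjusted p = 0.00148 for Sdha, the flavoprotein, -0.34, SE 0.11, adjusted p = 0.0323 for Sdhb, the iron-sulfur subunit, -0.37, SE 0.12, adjusted p = 0.0382 for Sdhc and -0.75, SE 0.11, adjusted p = 3.15e-05 for Sdhd, the membrane anchors. After NE, Sdhb and Sdhd were lower (-0.35, SE 0.11, adjusted p = 0.0221, and -0.63, SE 0.11, adjusted p = 0.000191), whereas Sdha had means of 1049.5 ± 29.4 in vector and 1026 ± 101 in tSema4B cells (log2 fold change -0.037 with SE 0.09 and adjusted p = 0.809) and Sdhc had 662 ± 60.5 and 550.3 ± 90.8 (log2 fold change -0.28 with SE 0.12 and adjusted p = 0.0949). In Sdha, the vector libraries came down with NE, from 1370.5, 1375 and 1302 to 1031, 1083 and 1034, and the tSema4B libraries had 999.95, 947 and 1065 and then 1142, 975 and 961. The unstimulated call of Sdhb was lost without any 1 of the 6 libraries compared, with an adjusted p between 0.051 and 0.113, and that of Sdhc was lost without unstimulated vector replicate 1 or 3 or unstimulated tSema4B replicate 1 or 2, with an adjusted p between 0.0982 and 0.151. The call of Sdhb after NE was lost without NE-treated vector replicate 2 or NE-treated tSema4B replicate 2, with an adjusted p between 0.138 and 0.145. It was also lost with the same total over all genes (limma, adjusted p = 0.0908) and quantile normalization (adjusted p = 0.0552). With no filter the unstimulated calls of Sdhb and Sdhc were lost (limma, adjusted p = 0.0702 and 0.0803), and that of Sdhc also with the same total over all genes (adjusted p = 0.0607).

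Fumarase (Fh1) hydrates fumarate to malate, which the malate dehydrogenases oxidize to oxaloacetate, and the 3 genes were lower in tSema4B cells in both conditions. Log2 fold changes without stimulation were -0.52, SE 0.13, adjusted p = 0.00977 for Fh1, -0.52, SE 0.10, adjusted p = 0.000844 for the cytosolic Mdh1 and -0.53, SE 0.09, adjusted p = 0.000217 for the mitochondrial Mdh2, and after NE they were -0.50, SE 0.13, adjusted p = 0.00871, then -0.44, SE 0.10, adjusted p = 0.00317 and -0.47, SE 0.09, adjusted p = 0.000574. Each of them had each tSema4B library below each vector library in both conditions. The call of Fh1 was lost without unstimulated vector replicate 1 or 2, with an adjusted p between 0.0531 and 0.0574, and after NE it was lost without NE-treated vector replicate 3 or NE-treated tSema4B replicate 2, with an adjusted p between 0.0552 and 0.058. The exons of Mdh1 overlap those of Wdpcp on the opposite strand.

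The aspartate and glutamate enzymes link the cycle to amino acids. The transaminases Got1 and Got2 were not called in either condition. Cytosolic Got1 had means of 106 ± 5.87 and 103 ± 13.2 in vector and tSema4B cells without stimulation (log2 fold change -0.044 with SE 0.21 and adjusted p = 0.925; 95% interval -0.48 to 0.39) and 89.7 ± 7.49 and 103 ± 32.6 after NE (log2 fold change 0.16 with SE 0.21 and adjusted p = 0.641). Mitochondrial Got2 had 274, 256 and 283 in the vector libraries and 316, 297 and 326 in the tSema4B libraries without stimulation (log2 fold change 0.21 with SE 0.12 and adjusted p = 0.296), and 237, 264 and 259 in the vector libraries and 279, 328 and 318 in the tSema4B libraries after NE (log2 fold change 0.28 with SE 0.12 and adjusted p = 0.105). Each tSema4B library of Got2 lay above each vector library in both conditions, yet the test did not call it. Glud1, glutamate dehydrogenase, which has 2 close copies that together were counted at 4.86% of its level, fell without stimulation (log2 fold change -0.62 with SE 0.13 and adjusted p = 0.00242) and at the edge of the threshold after NE (log2 fold change -0.37 with SE 0.13 and adjusted p = 0.048). Leaving out a library ended the latter call for 7 of the 12, with an adjusted p between 0.0522 and 0.18. These were unstimulated vector replicate 1 or 2, NE-treated vector replicate 1 or 3 or NE-treated tSema4B replicate 1 or 2 or 3. The call was also lost with a pseudocount of 0.5, no filter, the same total over all genes, quantile normalization and the same total over nuclear genes without Sema4b (limma, adjusted p between 0.0503 and 0.149).

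**Figure D4:**
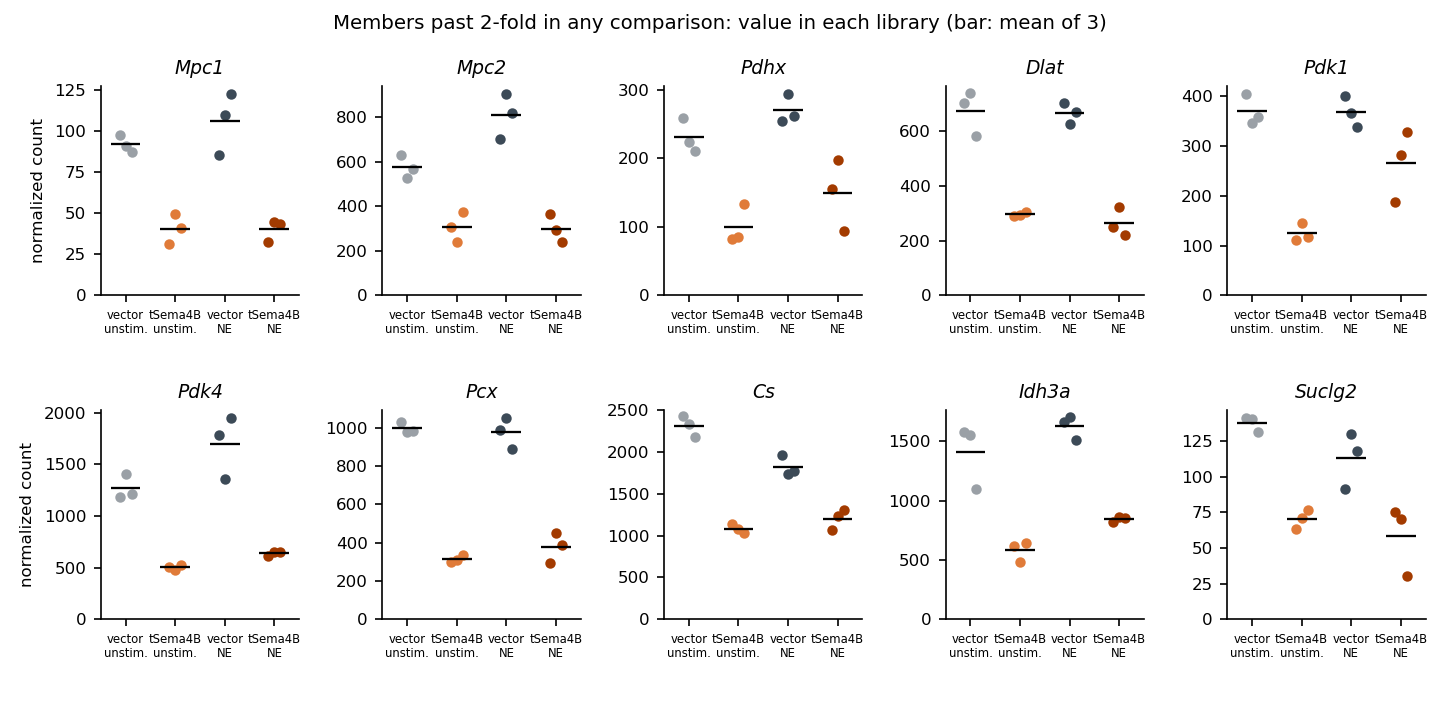
Normalized count in each of the 12 libraries (points) and the mean of 3 (bar) for the 10 genes called with at least a 2-fold change in any comparison of 2 groups. The axes start at 0. For each gene, the tSema4B libraries lie below the vector libraries of the same condition.

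Of 8 genes known to respond to NE, 6 were tested. Of these, 3 rose in vector cells, against 6.82% of all genes, and 1 in tSema4B cells, against 3.68%. For a difference in NE response between the lines, limma called 0 of the 6 (smallest adjusted p = 0.181), against 0.025% of all genes. Ucp1 is not among these 8 genes. The 6 brown adipocyte markers tested had log2 fold changes with NE from -0.58 to 4.42 in vector and from -0.63 to 6.00 in tSema4B cells. Of the TCA and pyruvate genes, 7 of the 32 were called with 6 h of NE in vector cells and 4 in tSema4B cells. In vector cells 3 rose (9.38%, against 6.82% of all genes) and 4 fell (12.5%, against 4.78%). In tSema4B cells 3 rose (9.38%, against 3.68%) and 1 fell (3.13%, against 2.58%). The median of the 32 was -0.04 in vector and 0.03 in tSema4B cells, beside medians of -0.02 and -0.0048 over all genes. In vector cells the genes that rose were Mpc2 (0.49, SE 0.16, adjusted p = 0.0466), Pdk4 (0.41, SE 0.11, adjusted p = 0.019) and Mdh2 (0.30, SE 0.09, adjusted p = 0.0292), and those that fell were Pdp1 (-0.66, SE 0.15, adjusted p = 0.00549), Cs (-0.35, SE 0.09, adjusted p = 0.0114), Aco1 (-0.47, SE 0.14, adjusted p = 0.0363) and Sdha (-0.36, SE 0.09, adjusted p = 0.0079). In tSema4B cells Pdk1 (1.06, SE 0.17, adjusted p = 0.00032), Idh3a (0.56, SE 0.12, adjusted p = 0.00625) and Mdh2 (0.36, SE 0.09, adjusted p = 0.0159) rose and Pdp1 fell (-0.70, SE 0.15, adjusted p = 0.00557). Pdk1 in tSema4B cells was the only gene of the 32 to change at least 2-fold, and each of its NE-treated tSema4B libraries was above each unstimulated one. Pdp1 and Mdh2 were called in both lines in the same direction.

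Several of the smaller responses lay near the threshold and lost their call when any 1 of several libraries was left out. In vector cells the rise of Mpc2 was lost without unstimulated vector replicate 1 or 2 or 3, unstimulated tSema4B replicate 1, NE-treated vector replicate 2 or 3 or NE-treated tSema4B replicate 2, with an adjusted p between 0.0537 and 0.196 and a log2 fold change of 0.40 to 0.55. Pdk4, whose groups overlapped, was lost without unstimulated vector replicate 1 or 3 or NE-treated vector replicate 1 or 3, with an adjusted p between 0.0738 and 0.154 and a log2 fold change of 0.30 to 0.38. Mdh2 was lost without unstimulated vector replicate 2 or 3 or NE-treated vector replicate 1 or 2 or 3, with an adjusted p between 0.0533 and 0.149 and a log2 fold change of 0.24 to 0.33. Of the genes that fell, Cs was lost without unstimulated vector replicate 1 or NE-treated vector replicate 2 or 3, with an adjusted p between 0.058 and 0.0655 and a log2 fold change of -0.31 to -0.32, and Aco1 without unstimulated vector replicate 1 or 2 or NE-treated vector replicate 1 or 3, with an adjusted p between 0.0666 and 0.226 and a log2 fold change of -0.32 to -0.50. In tSema4B cells Mdh2 was lost without unstimulated tSema4B replicate 1 or 2 or NE-treated tSema4B replicate 3, with an adjusted p between 0.0544 and 0.08 and a log2 fold change of 0.30 to 0.33. Pdp1 in both lines, Sdha in vector cells, and Pdk1 and Idh3a in tSema4B cells stayed called without any 1 of the 12 libraries. Ogdh was not called in vector (log2 fold change -0.19 with SE 0.11 and adjusted p = 0.343) or in tSema4B cells (log2 fold change 0.041 with SE 0.11 and adjusted p = 0.89).

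**Figure D5:**
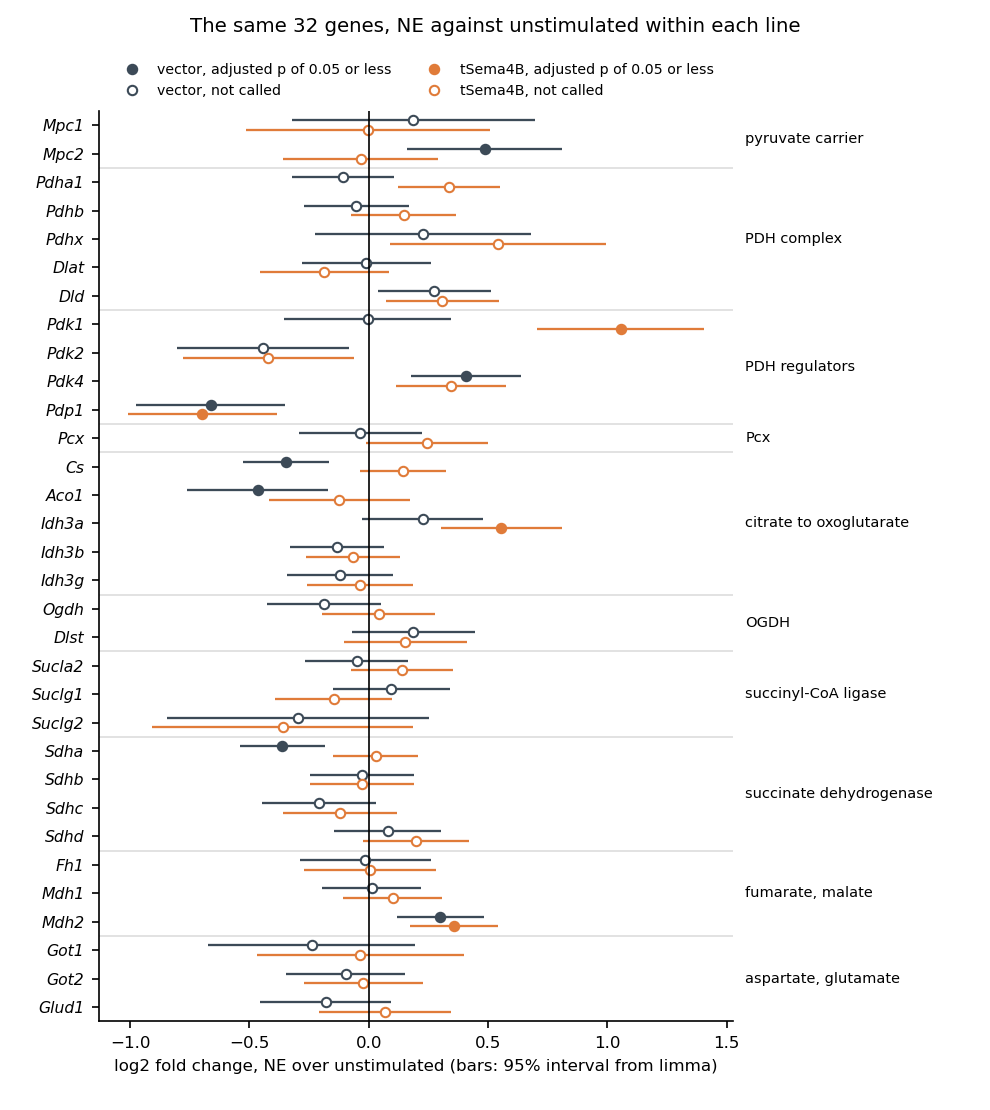
Log2 fold change of each of the 32 genes, NE over unstimulated, in vector cells (dark) and in tSema4B cells (orange), ordered by role. Bars are 95% intervals from limma, and filled points have an adjusted p of 0.05 or less. Most intervals include 0, and Pdk1 in tSema4B cells lies farthest from it.

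Whether NE acted differently in the tSema4B and vector lines was tested by the interaction, which is the log2 NE response in tSema4B minus that in vector cells. By limma 0 of the 32 genes were called, where 0.025% of all genes were (3 of 11998), and 5 had an unadjusted p under 0.05 (against 10.2% of all genes). These were Pdk1 (difference 1.06, SE 0.24, adjusted p = 0.113), Cs (0.49, SE 0.12, adjusted p = 0.143), Sdha (0.39, SE 0.12, adjusted p = 0.25), Pdha1 (0.44, SE 0.15, adjusted p = 0.269) and Mpc2 (-0.52, SE 0.22, adjusted p = 0.403). edgeR on whole reads called 0, against 0.0333% of all genes (4 of 11998). DESeq2 called 3 of the 29 to which it gave an adjusted p, against 2.67% of all such genes (103 of 3857), and these were Pdk1 (adjusted p = 0.00349), Cs (adjusted p = 0.0118) and Sdha (adjusted p = 0.0494), where edgeR gave adjusted p = 0.0698, 0.141 and 0.248. Pdk1 had gone from 112, 145 and 118 to 188, 282 and 329 in tSema4B cells, while in vector cells it had 405, 346 and 357 and then 399.8, 366 and 339.

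Per kb of exon, a scale on which genes can be compared, the 32 genes spanned a wide range. In unstimulated vector cells the highest level was that of Sdhd (649.8 ± 12.6 normalized counts per kb), followed by Mdh1 (445 ± 52.4), Mdh2 (416 ± 33.6), Cs (401 ± 21.4) and Sdhb (388 ± 12.7), with Pdk4 (361 ± 35.1) at rank 6. Sdhd stood clear of the next gene, while from Mdh1 to Pdk4 each gene differed from its neighbour by less than the larger of the SDs. At the low end were Pdk1 (47.5 ± 4.01), Mpc1 (44.1 ± 2.59), Got1 (41.7 ± 2.31) and Suclg2 (29.8 ± 1.13), of which Suclg2 differed from Got1 by more than the SDs, as Pdk1 did from Got2 above it (56.2 ± 2.81). The place of Mpc1 holds only for reads counted on Mpc1 itself, which were 24% of the sum of Mpc1 and Mpc1-ps in these libraries. In unstimulated tSema4B cells Sdhd stayed first (388 ± 61.9) and Suclg2 last (15.2 ± 1.47), the latter within the SDs of Pdk1 (16.1 ± 2.29), while Pdk4 moved to rank 13 (143 ± 6.84), Pcx from rank 15 to 22 (210.02 ± 6.10 and 66.2 ± 3.93) and Pdp1 from rank 26 to 16 (72.1 ± 8.48 and 103 ± 15.6).

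A wider list of 38 genes around the cycle was followed for context, with the isoforms, assembly factors, carriers and enzymes that feed or drain it, and 35 of them were tested. Of these, 34 are counted here, without Pck1. Without stimulation 9 of the 34 were lower in tSema4B cells, against 7.39% of all genes, and 0 higher, against 5.64% (median -0.28). After NE 9 were lower, against 11.2%, and 2, Pdk3 and Ldhb, were higher, against 9.79% (median -0.27). Pck1, left out of these counts, is the cytosolic phosphoenolpyruvate carboxykinase used in fat for glycerol synthesis, and it had 6.52, 12.6 and 6.53 normalized counts in unstimulated vector libraries and no read in any tSema4B library, so that it passed the filter only through vector libraries. Against a floor of 3 reads per library, Pck1 was at least 2.08-fold lower without stimulation and at least 2.96-fold lower after NE, for counting error only. The other named genes were Acss2, a cytosolic acetyl-CoA synthetase (log2 fold change -1.45 with SE 0.30 and adjusted p = 0.00171), and Glul, glutamine synthetase (log2 fold change -1.39 with SE 0.13 and adjusted p = 1.03e-07), both lower after NE too (-1.30, SE 0.30, adjusted p = 0.00301, and -1.13, SE 0.13, adjusted p = 2.07e-06), Acss2 at a log2 fold change of -0.85 without NE-treated tSema4B replicate 1 (adjusted p = 0.0189). Both had all tSema4B libraries below all vector libraries. Idh2, the mitochondrial NADP-dependent isocitrate dehydrogenase, is named for its place beside the cycle and not by size, and it fell without stimulation (-0.62, SE 0.09, adjusted p = 6.83e-05) and after NE (-0.44, SE 0.09, adjusted p = 0.00164).

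With NE, 2 genes of the wider list, Me2 and Ldha, rose in vector cells, against 6.82% of all genes, and 3 fell, against 4.78%. In tSema4B cells 2 rose, against 3.68%, and 1 fell, against 2.58%. Pck2, the mitochondrial carboxykinase, fell in both (-0.78, SE 0.11, adjusted p = 6.8e-05 in vector, and -0.44, SE 0.11, adjusted p = 0.0179 in tSema4B cells). Idh1, the cytosolic isocitrate dehydrogenase, and Slc25a10, the dicarboxylate carrier, fell in vector cells (-0.56, SE 0.08, adjusted p = 0.000129, and -0.56, SE 0.17, adjusted p = 0.0336). The genes that rose in tSema4B cells were those of lactate dehydrogenase, which interconverts pyruvate and lactate. Ldhb went from 224, 167 and 231 to 479, 506 and 374 (log2 fold change 1.13 with SE 0.15 and adjusted p = 3.54e-05), and Ldha from 3214, 3228 and 2969.5 to 5365, 5625 and 6264 (log2 fold change 0.87 with SE 0.07 and adjusted p = 3.67e-08). In both genes all NE-treated tSema4B libraries were above all unstimulated ones. Between the lines, Ldha was called lower in tSema4B than in vector cells in both conditions. Over all alternatives its log2 fold change was -1.01 to -0.89 without stimulation and -0.51 to -0.35 after NE. Among the genes of the wider list that are named here, Pck1 aside, calls between 2 groups that ended when a library was left out were those of Slc25a10 (without unstimulated vector replicate 1 or 2 or NE-treated vector replicate 1 or 2 or 3, with an adjusted p between 0.0702 and 0.142), Me2 (without unstimulated vector replicate 1 or 3 or NE-treated vector replicate 1 or 2 or 3, with an adjusted p between 0.059 and 0.124), Pck2 in tSema4B cells (without unstimulated tSema4B replicate 3 or NE-treated tSema4B replicate 1, with an adjusted p between 0.0549 and 0.06) and Ldhb between the lines after NE (without NE-treated vector replicate 2 or 3 or NE-treated tSema4B replicate 1 or 2, with an adjusted p between 0.0561 and 0.0825).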

How the data were processed

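RNA was sequenced from 12 libraries of vector and tSema4B brown adipocytes, 3 per group. Per the labels and the paper's methods, non-murine reads were removed with FastQ Screen, and the remaining reads were mapped with STAR 2.7.9a to mm10 (GRCm38.p4) and counted with HTSeq, and the authors deposited counts divided by DESeq2 size factors (a normalized count signal). Whole reads were recovered from the steps of the deposited signal within 0.01 for 100% of values, and gave totals of 2000780 to 5409583 reads, which set the precision. The main test was limma 3.58.1 (R 4.3.3) on log2(normalized count + 1) over the 11998 genes with at least 10 normalized counts in 3 libraries, with all 4 groups in a single fit and Benjamini-Hochberg adjustment over all genes. Fold changes on this scale understate low genes. A call is an adjusted p of 0.05 or less, and at least 2-fold means a log2 fold change of 1 or more in size. limma called 1564 genes between unstimulated lines, 2517 between NE-treated lines, 1392 for NE in vector and 750 for NE in tSema4B cells. On the whole reads edgeR 4.0.16 called 1530, 2704, 1617 and 696, and DESeq2 1.42.0 called 1682, 2849, 1769 and 842. The fits were tested on simulated data.

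The 32 genes, the wider list and the marker lists were chosen with earlier results of these data known. Values in every library are given for genes called with at least a 2-fold change in any comparison of 2 groups, and for the wider list the 3 largest called changes of each comparison are named. Replicates differed by more than counting noise (chi-square over degrees of freedom from 3.56 to 5.79), so none was merged. Levels per kb divide by the summed exon length in GENCODE vM21. Alternatives were other pseudocounts, filters, scalings, tools, libraries in the fit, a replicate block and leaving out each library. Of the deposited columns 0 were left unused.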

Additional observations from a re-analysis of the deposited data

Results flagged for a closer look

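Idh1, the cytosolic isocitrate dehydrogenase of the wider list, responded differently to NE in the tSema4B and vector lines by limma's interaction test. It had 4521, 4381 and 3429.7 normalized counts in unstimulated and 2819, 2689.7 and 2797 in NE-treated vector libraries, and 2064, 1895 and 1919 in unstimulated and 2228, 2243 and 2179 in NE-treated tSema4B libraries. The NE response in tSema4B minus that in vector cells was 0.74 on the log2 scale (SE 0.12, adjusted p = 0.0216). In vector cells Idh1 fell with NE, whereas the change in tSema4B cells, 0.18 on the log2 scale with SE 0.08, was not called (limma, adjusted p = 0.241). The interaction was lost without filter (adjusted p = 0.194) and when any of 7 libraries was left out, namely unstimulated vector replicate 1 or 2, unstimulated tSema4B replicate 3, NE-treated vector replicate 1, 2 or 3, or NE-treated tSema4B replicate 2 (adjusted p between 0.0546 and 0.117). Over all alternatives its adjusted p ranged from 7.89e-06 to 0.194, and the difference from 0.66 to 0.86.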

How the results depend on the processing

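Of the calls among the 32 genes, 23 of 28 between unstimulated lines, 18 of 24 between NE-treated lines, 2 of 7 for NE in vector and 3 of 4 for NE in tSema4B cells held under every alternative run, and none of the called genes changed direction. Leaving out each library in turn gave 23 to 28 genes lower and 0 to 1 higher between unstimulated lines (median -0.74 to -0.63), and 20 to 25 lower and 0 to 1 higher between NE-treated lines (median -0.60 to -0.52, the former without NE-treated tSema4B replicate 3). The higher gene, Pdp1, was lost without vector replicate 2 or 3 or tSema4B replicate 1 or 3 of the condition compared. For NE in vector cells, 0 to 3 rose and 2 to 4 fell (median -0.09 to 0.0015), with 0 higher without unstimulated or NE-treated replicate 3, 1 higher without unstimulated replicate 1 or 2 or NE-treated replicate 1 or 2, and 2 lower without unstimulated replicate 1 or NE-treated replicate 3. For NE in tSema4B cells, 2 to 5 rose and 1 fell (median 0.0348 to 0.0941, the latter without NE-treated replicate 2), with 5 without NE-treated replicate 1. The interaction gave 0 to 1 higher genes and 0 lower, with 1 without unstimulated tSema4B replicate 2 or NE-treated tSema4B replicate 1 (median 0.05 to 0.14).

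Asking for a 2-fold change as well left 8 genes lower and 0 higher between unstimulated lines, 6 lower and 0 higher between NE-treated lines, 0 lower and 0 higher for NE in vector cells, and 1 higher and 0 lower for NE in tSema4B cells. With no filter, more genes were tested and none of the 32 was higher between the unstimulated lines (0), between the NE-treated lines (0) or with NE in vector cells (0). With libraries scaled to the same total over all genes, 2 were higher between NE-treated lines with a median of -0.43, and 1 was higher with NE in vector cells. With the same total over nuclear genes, 0 were higher between unstimulated lines and the median was -0.78. Quantile normalization left 0 higher with NE in vector cells and a median of -0.13. The same total over nuclear genes without Sema4b, an alternative chosen after seeing the data, left 1 higher with NE in vector cells. DESeq2 called 3 genes in the interaction. By limma, Aco1 lost its call between NE-treated lines with the same total over all genes (adjusted p = 0.0566), and for NE in vector cells with no filter (adjusted p = 0.0786). For NE in vector cells Mpc2 also lost its call with a pseudocount of 0.5 (adjusted p = 0.0502) and the same total over nuclear genes (adjusted p = 0.0624). Mdh2 lost its call for NE in tSema4B cells when only the 6 libraries compared were fitted (adjusted p = 0.065). The cause of these changes was not tested.

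No shared effect of the replicate numbers was seen. The correlation of same-numbered deviations lay between -0.05 and 0.03 and was over 0.1 in 0 of 18 pairs. Whether libraries of the same number were handled together is not given in the labels. A fit with the replicate number as a block gave 27 lower and 1 higher between unstimulated lines, 23 and 1 between NE-treated lines, 2 higher and 4 lower for NE in vector cells and 3 higher and 1 lower for NE in tSema4B cells. Under the block Mpc2 lost its call for NE in vector cells (adjusted p = 0.057), and no other called gene of the 32 did.

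With 3 libraries per group, 1 line per construct and 2000780 to 5409583 reads, small differences and genes with few reads, such as Mpc1 and Suclg2, are the least precise. The fitted values cover the spread between libraries of these lines.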
